A study of Mus musculus with 45 samples.

Results

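The Xlr3, Xlr4 and Xlr5 genes are copies of a multigene family on the mouse X chromosome, and the 9 annotated as Xlr3a, Xlr3b, Xlr3c, Xlr4a, Xlr4b, Xlr4c, Xlr5a, Xlr5b and Xlr5c were described here, of 55401 genes in the count tables. The members were chosen by gene name, and the family was selected on its rise after EHMT2 loss and its level after washout in these same data. Values of the degradation, washout and sorting experiments are therefore descriptions without a test. That stated choice does not use the inhibitor and knockout libraries, which were tested. Earlier results of these data were nonetheless known when the members were chosen.

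The name Xlr stands for X-linked lymphocyte-regulated, after a founding gene found in lymphoid cells. The family belongs to a superfamily with Sycp3, a structural protein of the meiotic chromosome axis, and several of its branches are expressed in the testis or ovary. In mouse brain, Xlr3b, Xlr4b and Xlr4c are known as imprinted genes. EHMT2, also called G9a, is a histone methyltransferase that works as a dimer with EHMT1 and deposits H3K9me2, a mark of repressed chromatin.

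Cells were mouse embryonic stem cells (mESCs) grown on feeder fibroblasts. In EHMT2-dTAG cells, derived from the KH2 line of a C57BL/6J by 129S1 cross, the endogenous protein carries a degron tag and is removed by the small molecule dTAG-13, and the DMSO controls carry the same tag. The time course held DMSO_24h, dTAG_24h, DMSO_7d and dTAG_7d. The washout experiment held DMSO_15d, dTAG_15d and Recovery, in which 7 d of dTAG-13 were followed by 8 d in DMSO. For the sorted groups, EHMT2-dTAG cells with a GFP reporter of the MERVL retrovirus were divided after 72 h with DMSO or dTAG-13. The parts were reporter-negative mESCs and reporter-positive 2-cell-like cells (2CLCs), giving DMSO_mESC, DMSO_2CLC, dTAG_mESC and dTAG_2CLC. The Dppa4 experiment held wild-type J1 (WT) and Dppa4 knockout (KO) mESCs kept for 48 h with DMSO or with UNC0638, which blocks the catalytic activity of both EHMT proteins. Each of the 15 groups had 3 libraries. In the time course and washout experiments the labels name the same 3 EHMT2-dTAG clones in every group, with 1 library per clone. In the first 3 experiments the tables used give 1 mean per group, so those values have no spread. Fewer cells expressing a gene and less RNA per cell cannot be told apart in such bulk libraries. Ehmt2 mRNA was at 622 in DMSO_7d and 582 in dTAG_7d, and at 691, 557 and 546 in DMSO_15d, dTAG_15d and Recovery, which does not check the loss of the protein. In the Dppa4 experiment the 12 libraries held between 8399885 and 12710949 gene reads.

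All 9 members lie within 219 kb of chromosome X (GRCm38, chrX:73074345-73292976). Xlr4a and Xlr3a open the cluster, Xlr5a, Xlr5b, Xlr3b and Xlr4b follow, and Xlr4c, Xlr3c and Xlr5c close it. The subfamilies are thus interspersed, with Xlr5b next after Xlr5a and Xlr4c next after Xlr4b in the order of members. Xlr5a, as annotated, runs from 73107635 to 73292976 and ends with Xlr5c, with which it shares 5.48% of its exonic bases on the same strand. No other member shares exonic bases with any annotated gene.

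**Figure D1:**
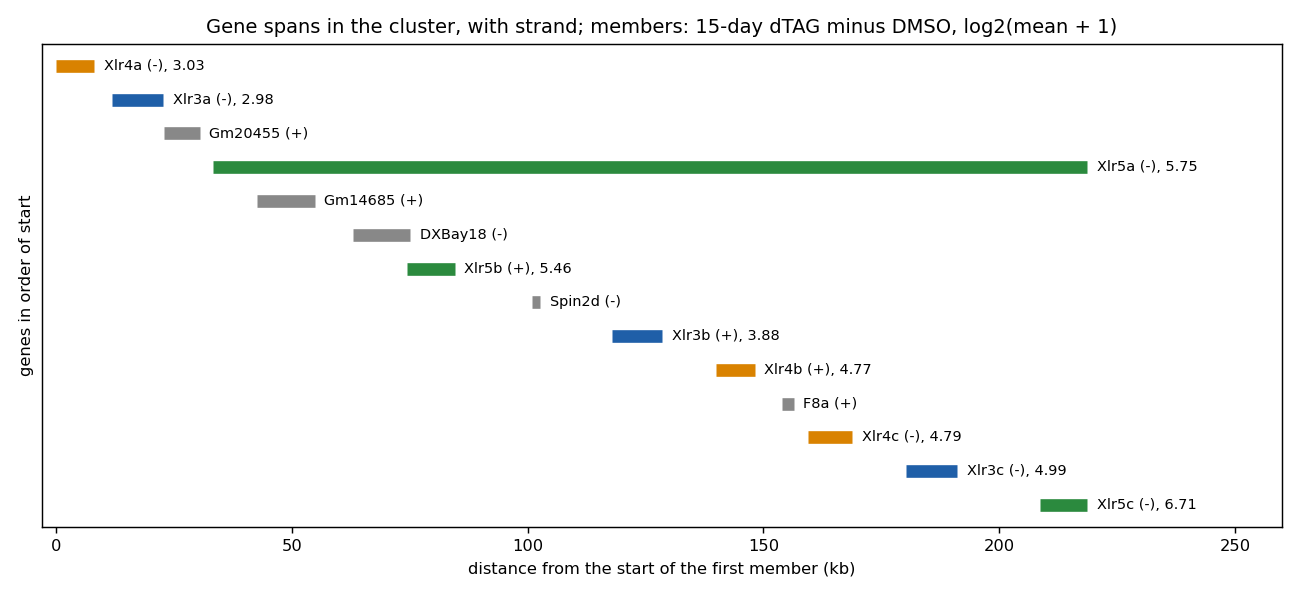
Spans of the 9 members (blue Xlr3, orange Xlr4, green Xlr5) and of the 5 genes annotated between them (grey), as distance in kb from the start of Xlr4a, with the strand in brackets. The number after each member is the difference between dTAG_15d and DMSO_15d on the log2(group mean + 1) scale, which ran from 2.98 for Xlr3a to 6.71 for Xlr5c.

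Copies resemble each other closely enough that reads can fit several of them. Of all stretches of 100 bases in a member's transcripts, the share also present in another member ran from 21.9% for Xlr3a to 81.3% for Xlr5b. Between subfamilies it was at most 4.3%, in Xlr4a. Because a read with several equal places was put at a single random one, values of single copies are uncertain, and sums over each subfamily are given beside them. Between 1.01% (Xlr3c) and 13.9% (Xlr5c) of the stretches were also present in transcripts of genes outside the family.

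The promoters differ between subfamilies and in part within them, and 1 from each is printed to show the difference between subfamilies, from RefSeq (GRCm38.p6) as 300 bases around the gene's start, on the strand of the gene, with CG dinucleotides in capitals. The Xlr3b window is chrX:73191929-73192228, the Xlr4b window chrX:73214083-73214382, and the Xlr5a window chrX:73117653-73117952, which lies inside the longer Xlr5a span of GENCODE.
Xlr3b: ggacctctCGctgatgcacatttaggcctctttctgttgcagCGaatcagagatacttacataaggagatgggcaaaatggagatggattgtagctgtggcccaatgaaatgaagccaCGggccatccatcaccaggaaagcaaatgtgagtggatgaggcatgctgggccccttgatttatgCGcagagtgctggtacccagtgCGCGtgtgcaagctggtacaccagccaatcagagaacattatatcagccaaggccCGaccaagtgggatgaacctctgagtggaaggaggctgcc
Xlr4b: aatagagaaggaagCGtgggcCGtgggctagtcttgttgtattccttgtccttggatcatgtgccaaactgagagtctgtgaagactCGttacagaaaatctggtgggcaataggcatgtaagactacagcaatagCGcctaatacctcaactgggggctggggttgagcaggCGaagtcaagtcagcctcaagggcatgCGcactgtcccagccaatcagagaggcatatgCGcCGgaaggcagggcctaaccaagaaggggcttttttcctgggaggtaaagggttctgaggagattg
Xlr5a: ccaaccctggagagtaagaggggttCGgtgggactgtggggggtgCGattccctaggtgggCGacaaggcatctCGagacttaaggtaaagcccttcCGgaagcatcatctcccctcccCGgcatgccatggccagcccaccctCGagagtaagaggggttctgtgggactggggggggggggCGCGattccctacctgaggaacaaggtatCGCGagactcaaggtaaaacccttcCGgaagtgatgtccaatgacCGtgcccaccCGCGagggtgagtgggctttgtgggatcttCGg
The Xlr5a and Xlr5b windows each hold 16 CG dinucleotides, a number that 33.0% of the 32851 promoters in the table reach. Those of the Xlr3 and Xlr4 genes hold 5 to 8, near the median of 7 over all promoters, and the Xlr5c window holds 1. The Xlr5c window, chrX:73290466-73290765, also lies inside the GENCODE span of its gene, which on the minus strand starts at 73292976. The part of this different annotated start in the CG number and identities of the Xlr5c window was not tested. Identity was 93.5% between the Xlr4a and Xlr4b windows and 84.1% between Xlr3b and Xlr3c, but 59.8% between Xlr3a and Xlr3b and 48.3% between Xlr3a and Xlr3c. It was 73.9% between Xlr5a and Xlr5b but 45.7% between Xlr5a and Xlr5c. The Xlr3a window against Xlr3c, and the Xlr5c window against Xlr5a, were thus no more alike than windows of different subfamilies, which reached 54.8%. Neither CACGTG nor GGCGGGA, searched on both strands, occurs in any of the 9 windows, against 7.15% and 11.3% of all promoters.

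In undisturbed EHMT2-dTAG cells the Xlr3 genes carried most of the family's reads. At DMSO_24h the mean normalized count was 52.2 for Xlr3a, 22.1 for Xlr3b and 9.81 for Xlr3c. The Xlr4 genes stood at 5.04, 1.02 and 2.15 for Xlr4a, Xlr4b and Xlr4c. The Xlr5 genes stood at 1.11, 1.90 and 1.53 for Xlr5a, Xlr5b and Xlr5c. Between DMSO_24h and DMSO_7d, 0 of 9 members rose past the fold, set at a difference of 1 on the log2(group mean + 1) scale, against 2.45% of the genes with a mean of at least 1 in either group.

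After 24 h of dTAG-13 the family had hardly moved. The Xlr3 sum was 84.2 with DMSO and 85.4 with dTAG-13, the Xlr4 sum 8.22 and 14.7, and the Xlr5 sum 4.54 and 5.53. Past the fold was 1 of 9 members, Xlr4b, from 1.02 to 4.16, against 6.53% of all genes. Over the same day 16 of 16 genes of the 2-cell programme (2C genes, such as the Zscan4 cluster and Zfp352) were past the fold, with a median difference of 3.42, while the median of the 9 members was 0.34. The control of this comparison stood apart in Xist, at 150 in DMSO_24h, 1.00 in dTAG_24h and 0.24 in DMSO_7d, and the part of this in the values of the X-linked members was not tested.

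After 7 d all subfamilies were high. The Xlr3 sum was 78.2 in DMSO_7d and 545 in dTAG_7d, the Xlr4 sum 8.24 and 74.5, and the Xlr5 sum 5.08 and 93.3. Among single copies, Xlr3a went from 46.4 to 252, Xlr3b from 25.8 to 188 and Xlr3c from 5.93 to 105. Xlr4a went from 4.72 to 27.4, Xlr4b from 2.48 to 29.4 and Xlr4c from 1.03 to 17.7. Xlr5a went from 2.02 to 28.4, Xlr5b from 1.60 to 26.5 and Xlr5c from 1.45 to 38.5. The 9 of 9 members past the fold stand beside 8.73% of all genes, a contrast the choice of the family used. Relative to its control, Xlr5c had the largest difference of the 9, 4.01 on the log2(group mean + 1) scale, and Xlr4a the smallest, 2.31. Per kb of exon, the Xlr3 genes were the most abundant at dTAG_7d, at 49.9 to 66.2 normalized counts per kb, against 7.91 to 23.1 for the other 6 members. The summed level of 4 Y-linked genes also went from 44.7 to 100.3 between DMSO_7d and dTAG_7d, with 2 of 4 past the fold, and that of 9 feeder fibroblast genes from 3067 to 5148, with 1 past the fold. Their part in the result was not tested.

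At 15 d, in an experiment with its own controls, the differences were larger for each of the 9 members than at 7 d. Xlr3a stood at 99.4 in DMSO_15d and 793 in dTAG_15d, Xlr3b at 44.2 and 663, and Xlr3c at 11.0 and 378. Xlr4a stood at 5.73 and 53.9 and Xlr4b at 0.44 and 38.3, while Xlr4c was listed at 0 in DMSO_15d and reached 26.7. Xlr5a stood at 0.77 and 93.8, Xlr5b at 1.21 and 96.3, and Xlr5c at 0.28 and 134. As subfamilies, the Xlr5 sum differed by 6.64 on the log2(sum + 1) scale, the Xlr4 sum by 4.06 and the Xlr3 sum by 3.56. The value for Xlr5 depends on the constant added, since its control sum was 2.25. Again 9 of 9 members were past the fold, beside 9.23% of all genes. The time course and the washout experiment were normalized separately, so levels at 7 d and 15 d are not compared. Total normalized counts were 14402265 in DMSO_7d and 21474099 in DMSO_15d. For single copies with low controls, such as Xlr4c and Xlr5c, the size of a difference therefore also depends on the scale and the added constant. The larger differences at 15 d are a description across experiments, without a test.

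**Figure D2:**
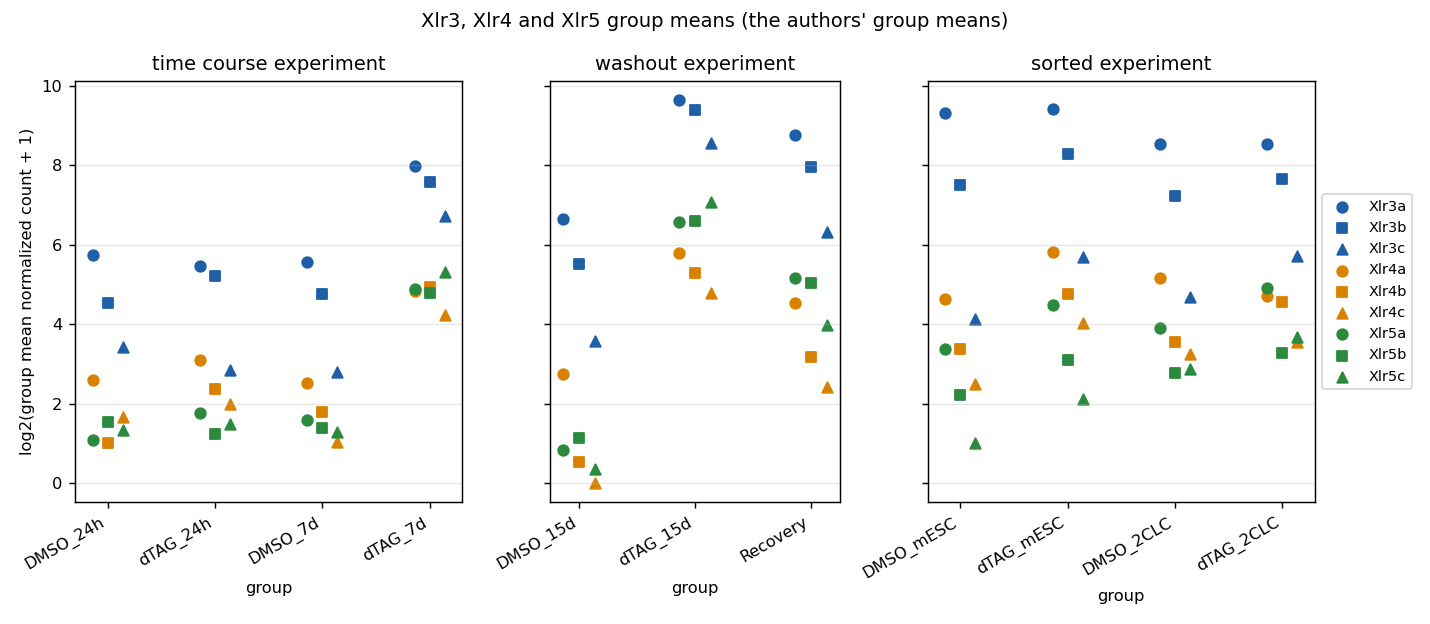
The log2(group mean normalized count + 1) of the 9 members (colour by subfamily, marker shape by copy) in each group of the time course, washout and sorted experiments. Each point is 1 group mean without a spread; the members are high at dTAG_7d and dTAG_15d, between control and treated in Recovery, and change less in the sorted cells.

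With dTAG-13 removed for 8 d, the family was lower than with continued treatment but not at the control level. Xlr3a stood at 434 in Recovery, Xlr3b at 248 and Xlr3c at 78.3. The Xlr4 genes stood at 22.2 (Xlr4a), 8.05 (Xlr4b) and 4.35 (Xlr4c), and the Xlr5 genes at 34.7 (Xlr5a), 31.8 (Xlr5b) and 14.7 (Xlr5c). Against DMSO_15d, 9 of 9 members were past the fold, beside 3.53% of all genes, and against dTAG_15d 8 of 9 were lower past the fold, beside 10.6%. The exception was Xlr3a, at a difference of -0.87.

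As a share of the rise at 15 d, the level above control in Recovery was 48.2% for Xlr3a, 32.9% for Xlr3b and 18.3% for Xlr3c. It was 34.2% for Xlr4a, 20.1% for Xlr4b and 16.3% for Xlr4c, and 36.5% for Xlr5a, 32.2% for Xlr5b and 10.8% for Xlr5c. The c copy was thus the lowest of each subfamily. Recovery cells had 7 d of dTAG-13 before the washout, so the 15-day rise is not one they had reached. How much of the gap to dTAG_15d is a fall after washout was not tested. Over the 984 genes past the fold at 15 d with a group mean of at least 10, the median share was 3.32%, with quartiles of -0.15% and 14.8%, and the 9 members, which are among the 984, had a median of 32.2%. For the 71 of those genes on chromosome X that are no members, neighbours of the cluster included, the median was 2.3%. The 2C genes differed between Recovery and DMSO_15d by a median of 0.57, with 0 of 16 past the fold.

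**Figure D3:**
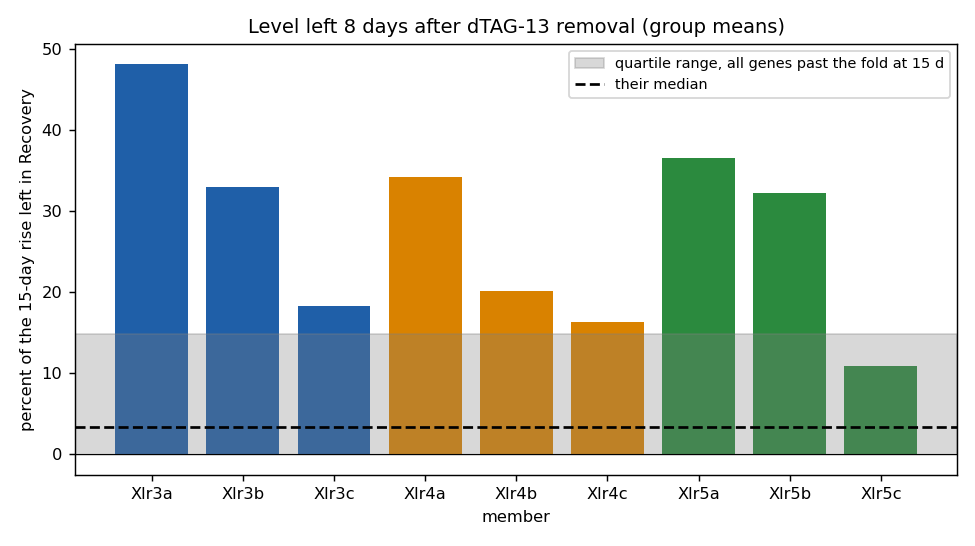
Bars give, for each member, the Recovery level above DMSO_15d as a percent of the difference between dTAG_15d and DMSO_15d group means. Recovery cells had 7 d of dTAG-13, not 15 d. The band is the quartile range and the dashed line the median over the 984 genes past the fold at 15 d. The bars run from 10.8% for Xlr5c to 48.2% for Xlr3a, and 8 of 9 lie above the upper quartile of 14.8%.

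Other measures differed between the same washout groups. The summed level of 4 Y-linked genes was 8.79 in DMSO_15d, 155 in dTAG_15d and 106 in Recovery, and Ddx3y alone stood at 2.26, 70.5 and 53.9. The summed level of 9 feeder fibroblast genes was 5058, 6464 and 1912, and Xist was at 149, 242 and 106. The median difference over other chromosome X genes was 0.10 at dTAG_15d and 0.07 in Recovery, against 0.00 and -0.01 over autosomal genes. Whether a difference in the cells' sex chromosomes or in the feeder share has a part in the values of the Xlr genes was not tested. Lymphocyte markers took different courses: Cd3e went from 16.0 to 73.6 and back to 12.2, while Cd79a stood at 40.5, 29.8 and 35.4, and Ptprc stayed under 1 in these groups.

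In the cells sorted after 72 h the members differed less between dTAG-13 and DMSO than at 7 d, in an experiment normalized on its own. The sorted control already held more of the family. Its Xlr3 sum was 829 of 8750232 total normalized counts in DMSO_mESC, against 78.2 of 14402265 in DMSO_7d. The part of this higher control level, or of the shorter treatment, in the smaller differences was not tested. Xlr3a stood at 632 in DMSO_mESC and 679 in dTAG_mESC, and Xlr3b at 180 and 309. Xlr3c went from 16.6 to 50.4, Xlr4a from 23.7 to 55.4, Xlr4b from 9.33 to 26.2 and Xlr4c from 4.61 to 15.3. Xlr5a went from 9.32 to 21.2, Xlr5b from 3.64 to 7.51 and Xlr5c from 1.02 to 3.33. In reporter-negative mESCs 6 of 9 members were past the fold, beside 10.9% of all genes. In 2CLCs 3 of 9 were, namely Xlr3c, Xlr4b and Xlr5a, beside 8.96%. Their differences were close to the fold itself, at 1.03, 1.02 and 1.02. Feeder fibroblast genes differed in the same comparisons, their sum going from 732 to 1372 in mESCs, with 5 of 8 past the fold, and from 1436 to 3049 in 2CLCs, with 7 of 8. The Y-linked sum went from 0.54 to 15.4 in mESCs and from 34.6 to 48.3 in 2CLCs, and the part of either in the result was not tested.

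Between 2CLCs and mESCs the family showed no common direction. With DMSO, Xlr3a stood at 369 in 2CLCs against 632 in mESCs and Xlr3b at 147 against 180, while Xlr5c stood at 6.32 against 1.02. Higher past the fold was 1 of 9 members, Xlr5c, beside 22.9% of all genes, and 0 of 9 were lower, beside 9.86%. With dTAG-13, Xlr5c was higher (11.8 against 3.33) beside 19.5% of all genes, and Xlr4a was lower (25.01 against 55.4) beside 10.9%. The 2C genes, by contrast, were higher past the fold in 16 of 16 cases in both comparisons, with medians of 7.40 and 4.67, which checks the sort.

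The Dppa4 libraries tested the family with an inhibitor in another line. Dppa4, a chromatin factor that activates the 2C programme, was at 830 ± 115 normalized counts (SD, n = 3) in WT_DMSO, 758 ± 27.1 (SD, n = 3) in WT_UNC0638 and at 0 reads in all 6 KO libraries. Of the 9 members, 3 passed the filter on low counts, all of them Xlr3 genes. They held 510 reads over the 12 libraries, while the 6 Xlr4 and Xlr5 genes held 27. Xlr4a, Xlr4c and Xlr5a had 0 reads in every library, which allows up to 3 reads per group. Xlr5c had 6 reads in WT_UNC0638 replicate 1 and 7 and 4 in KO_UNC0638 replicates 2 and 3, with 0 in the other 9 libraries. In the sorted and Dppa4 experiments reads were 150 bases long, and the share of exonic bases in exons of at least that length ran from 53.3% for Xlr5c to 89.7% for Xlr4b. Xlr5b had 6 reads in KO_DMSO replicate 2 and 1 in WT_UNC0638 replicate 1, and Xlr4b had 3 in that same WT_UNC0638 library.

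Xlr3a stood at 9.31, 1.23 and 1.75 normalized counts in the 3 WT_DMSO libraries and at 50.2, 21.5 and 30.3 in WT_UNC0638. In the KO lines it stood at 0, 3.06 and 0 with DMSO and at 21.2, 29.0 and 20.1 with UNC0638. The treated libraries lay above the DMSO libraries in both genotypes, without overlap. The share of all genes that separate in this way was not counted, so the separation is a description only. On the log2(normalized count + 1) scale the UNC0638 difference was 3.05 (SE 0.78, adjusted p = 0.562 by limma) in WT and 3.92 (SE 0.78, adjusted p = 0.0385 by limma) in KO. In WT 0% of the 17258 genes tested were called higher (adjusted p under 0.05 and a difference of at least 1), with 1504 at an unadjusted p under 0.05, 0 calls by edgeR and 13 by DESeq2. In KO 0.411% were called higher. The KO call was lost with edgeR (adjusted p = 0.0629), without the low-count filter (0.0768), and without each of WT_UNC0638 replicates 1, 2 and 3, KO_DMSO replicates 1 and 3 and KO_UNC0638 replicates 2 and 3 (0.0596 to 0.165), and over all 20 alternatives the adjusted p ran from 0.00568 to 0.165. By reads, the KO ratio was 22.0 (95% exact interval 7.25 to 109, counting error only), from 73 against 3 reads.

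Xlr3b, the member called between the genotypes with DMSO, stood at 18.6, 4.92 and 17.5 in WT_DMSO and at 0 in all 3 KO_DMSO libraries. The pooled reads, 40 against 0, put it 13.6-fold lower in KO when 3 reads over the group are taken as the floor. That value leaves out the counting error of the 40 reads and the spread between libraries, so it is no firm bound. The fitted difference was -3.69 (SE 0.71, adjusted p = 0.00682 by limma), and it was called under all 20 alternatives (0.000611 to 0.0346), where 3.1% of all genes were called lower. With UNC0638 the WT libraries stood at 52.0, 20.6 and 34.3 and the KO libraries at 4.599, 8.60 and 13.97. The difference of -1.88 (SE 0.71) was not called (adjusted p = 0.146 by limma), and 2.31% of all genes were called lower. The UNC0638 difference in KO was 3.22 (SE 0.71, adjusted p = 0.0517 by limma, 0.00755 to 0.179 over the alternatives). By pooled reads, 29 against 0, it was 8.76-fold, with the same floor and the same limit. In WT the UNC0638 difference was 1.41 (SE 0.71, adjusted p = 0.569 by limma). The genotypes also differed in other measures. The Y-linked sum was 32.4 in WT_DMSO and 4.89 in KO_DMSO, and 40.8 and 5.21 with UNC0638. The feeder sum was 5307 and 3011 with DMSO, and 4993 and 3178 with UNC0638. Xist stood at 89.9 in WT_DMSO and 99.1 in KO_DMSO. Their part in the genotype differences of the Xlr3 genes was not tested.

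Xlr3c stood at 8.14, 9.84 and 5.25 in WT_DMSO and at 23.8, 1.87 and 46.3 in WT_UNC0638, so the treated libraries lay on both sides of the controls. In KO it had 1 read over the 3 DMSO libraries and 3 over the 3 UNC0638 libraries, and no fold is given between them. Against WT the difference was -2.72 (SE 1.04, adjusted p = 0.122 by limma) with DMSO and -3.05 (SE 1.04, adjusted p = 0.107 by limma, 0.0126 to 0.201 over the alternatives) with UNC0638. The latter was called by edgeR (0.0428) and DESeq2 (0.0126), and without WT_UNC0638 replicate 2 (0.0434). By reads it was 87 against 3, a ratio of 26.5 (95% exact interval 8.78 to 131, counting error only, without the spread between libraries).

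Whether the inhibitor acted differently in the genotypes was tested by the interaction. It was 0.87 (SE 1.10, adjusted p = 0.873 by limma) for Xlr3a, 1.81 (SE 1.01, adjusted p = 0.775 by limma) for Xlr3b and -0.33 (SE 1.47, adjusted p = 0.972 by limma) for Xlr3c. Of all genes 0% were called, with 1076 at an unadjusted p under 0.05, and edgeR called 0. DESeq2 gave no adjusted p for the 3 members. A p that misses the threshold does not show that the inhibitor acted alike in both genotypes.

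**Figure D4:**
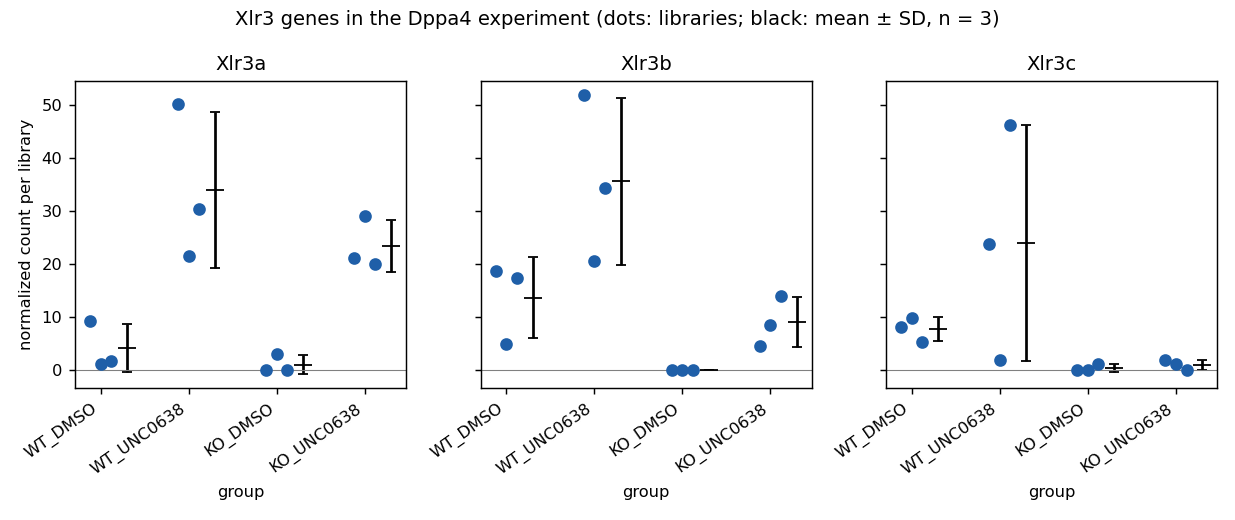
Normalized counts of Xlr3a, Xlr3b and Xlr3c in each library of the Dppa4 experiment (dots) with the mean ± SD of the 3 libraries of a group (black). Xlr3b is at 0 in every KO_DMSO library, Xlr3a is between 20.1 and 50.2 in the UNC0638 libraries of both genotypes, and Xlr3c is at most 1.84 in the KO libraries.

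Among relatives outside the 9, 3 pseudogenes of the Xlr3 and Xlr5 types had the members' course in the washout experiment. The other 3 Xlr pseudogenes, Xlr3e-ps, Xlr4d-ps and Xlr4e-ps, were listed at 0 in its groups. Xlr5e-ps stood at 0.44 in DMSO_15d, 18.5 in dTAG_15d and 6.31 in Recovery, and Xlr5d-ps at 0, 16.4 and 6.33. Xlr3d-ps stood at 0, 4.66 and 2.23, and at 2.0 in DMSO_7d and 8.11 in dTAG_7d. Reads that fit a member and a pseudogene equally were put at a single random place. These low values may thus hold reads of the members, which was not tested. Xlr itself stayed under 1 in all 15 groups, and Slx, Slxl1 and Sly, the related genes expressed in the testis, were listed at 0 throughout. Sycp3 took another course, at 87.6 in DMSO_7d and 48.2 in dTAG_7d.

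Of the 5 genes annotated between the members, 2 had the same course at 15 d and after washout. Gm14685 stood at 1.33 in DMSO_15d, 52.7 in dTAG_15d and 15.9 in Recovery, and DXBay18 at 1.16, 50.6 and 14.2. F8a, which lies between Xlr4b and Xlr4c, stood at 55.5, 82.7 and 51.1, and Gm20455 and Spin2d stayed under 3 in all groups. Of 70 further genes within 1 Mb on either side, 46 had a mean of at least 1 in either group at 15 d, and 9 of them were past the fold with a median difference of 0.05. The 5 with the largest means, Rpl3-ps2, Hcfc1, Pdzd4, Rpl10 and Dusp9, were not among those 9. In Recovery 4 of the 70 were higher than DMSO_15d past the fold, named here after their values were seen. Pnma5, before the cluster at chrX:73033981-73037103, stood at 164 in DMSO_15d, 1219 in dTAG_15d and 565 in Recovery, and Pnma3, at chrX:73064787-73068191 between Pnma5 and Xlr4a, at 12.1, 81.1 and 34.8. Gm5639, just beyond the other end, stood at 2.21, 28.5 and 8.20, and Gabrq at 0.56, 1.15 and 2.60. Pnma5, Pnma3 and Gm5639 thus had the members' course in these groups, on both sides of the cluster. Of the 61 Magea, Rhox and Fthl17 genes on X, 34 of the 40 with a mean of at least 1 were past the fold at dTAG_15d, with a median difference of 1.82, and 0 of 16 were in Recovery, with a median of 0.05.

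Over the 15 group means, centred within each experiment, the patterns most like the Xlr3 sum were those of Rhox5 (r = 0.935), 1110019D14Rik (0.921) and Evx1 (0.906). A high r did not mean a shared washout course. In DMSO_15d, dTAG_15d and Recovery, Rhox5 stood at 123, 567 and 129, near its control after washout. In the same groups 1110019D14Rik stood at 72.6, 113 and 106, and Evx1, hardly expressed there, at 0.33, 1.81 and 0.68. Most like the Xlr4 sum were Gm16499 (0.976), Gm5639 (0.958) and 1700019E08Rik (0.955), and most like the Xlr5 sum were Gm5639 (0.931), Xlr5e-ps (0.93) and Gm16499 (0.919). The value of Xlr5e-ps has the limit given above, that it may hold reads of members. Gm5639 lies at chrX:73297593-73299995. The sums of Xlr4 and Xlr5 correlated at 0.918 and those of Xlr3 with Xlr4 and Xlr5 at 0.725 and 0.608, as a description over groups that share controls and libraries.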

How the data were processed

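RNA was measured in 45 libraries, 3 in each of 15 groups taken from the sample labels. Per the study's methods, the authors trimmed reads with Trim Galore 0.6.7, aligned them to mm10 with STAR 2.7.10 without spliced alignments and with reads of several places put at 1 random place, counted genes and repeats with TEcounts, and normalized with DESeq2 1.34.0 in R 4.1.0. A read thus had to lie within an exon, and 71.1% (Xlr4a) to 93.7% (Xlr5c) of a member's exonic bases are in exons of at least 100 bases, the read length of the time course and washout experiments. For the 150-base reads of the other experiments the share is 53.3% (Xlr5c) to 89.7% (Xlr4b). The deposited values are a signal, DESeq2-normalized counts: group means in 3 experiments, single libraries in the Dppa4 experiment. Deposited tables of the authors' own fold changes and p-values, and all tables of repeats, were not used. Members and lists were chosen with earlier results of these data known.

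Group means were compared as differences of log2(mean + 1), with no test. The names of all 9 members matched GENCODE M21 (GRCm38), as did 98.1% of all IDs. In the Dppa4 experiment 100% of values were whole reads (tolerance 0.1) after division by the library's step. limma's trend test was fitted on log2(normalized count + 1) in a model of 4 groups, after the filterByExpr filter of edgeR, with Benjamini-Hochberg adjustment over 17258 genes; it was tested on simulated data. Versions were limma 3.58.1, edgeR 4.0.16 and DESeq2 1.42.0. Named were all members, the relatives, the neighbours within 1 Mb and the 3 most alike genes of each subfamily. Within WT, same-numbered libraries deviated together (r = 0.246, 0.103 and 0.431), so the numbers may pair them, while in KO the values were mixed (0.154, -0.092 and 0.013). The p-values of the main fit ignore such pairing. With a replicate block the UNC0638 difference in WT had an adjusted p by limma of 0.325 for Xlr3a and 0.409 for Xlr3b. For the Dppa4 experiment the methods name 3 clonal lines, but its labels do not tie libraries to them, so p-values measure the spread between these libraries.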

Additional observations from a re-analysis of the deposited data

How the results depend on the processing

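Group-mean counts of members past the fold kept within 1.5 times under pseudocounts of 0.5 and 5 and under rescaling over genes alone, with these exceptions. With a pseudocount of 5, 0 members were past the fold at 24 h (1 before), 0 with dTAG-13 in 2CLCs (3 before) and 0 higher in DMSO_2CLC than DMSO_mESC (1 before). A stricter difference of 2 left 0 members at 24 h, 4 lower in Recovery than dTAG_15d, 0 in either sorted dTAG-13 comparison, and 0 in each comparison of 2CLCs with mESCs. With a pseudocount of 5 the Xlr5 sum differed by 3.29 at 7 d, 5.50 at 15 d, 3.57 in Recovery and 0.96 in sorted mESCs, and the Xlr4 sum by 3.47 at 15 d; a larger constant shrinks differences from low controls.

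In the Dppa4 experiment the count of members called higher with UNC0638 in KO was 1; it was 0 with edgeR, without the filter and at an adjusted p under 0.01, and 2 with DESeq2, with a pseudocount of 0.5 and with the replicate block, and leaving out 1 library gave 0 to 2. Members called lower in KO with UNC0638 were 0; they were 1 with edgeR and 1 with DESeq2, and 0 to 1 leaving out 1 library. The cause was not tested. The interaction of Xlr3c (-0.33) ran from -1.52 to 0.10 leaving out 1 library, above 0 without KO_DMSO replicate 3 (0.04) or KO_UNC0638 replicate 3 (0.10). The replicate block raised the calls over all genes with UNC0638 in KO from 80 to 155, where same-numbered libraries did not deviate together throughout, and changed no call in WT. The 6 Xlr4 and Xlr5 genes, at 27 reads in all, did not pass the filter, and without it 3 of them entered the fit.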
